A study of Mus musculus with 6 samples.

Results

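The 31 genes described here are p53 itself (Trp53), its inhibitors Mdm2 and Mdm4, and 28 genes known as transcriptional targets of p53, out of 24421 genes in the deposited expression table. They were taken by gene name, from knowledge of the pathway and with earlier results of these data known. Every one of them was in the table. RNA was sequenced from E14 mouse embryonic stem cells, 2 libraries from wild-type cells and 2 from Pml-/- cells, each kept for 15 h with 10 µM paraquat, which makes superoxide inside cells by redox cycling. The cells were kept in medium with PD0325901 (a MEK inhibitor), CHIR99021 (a GSK3 inhibitor) and leukemia inhibitory factor. Every library is from treated cells, so the comparison is between genotypes under paraquat and holds no measure of the response to paraquat. How the Pml gene was disrupted, and from how many clones the Pml-/- libraries came, is not stated by any source used here. The 2 remaining samples of the series, PML-associated chromatin from an APEX-PML knockin, were not analysed here.

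p53 is a transcription factor that is kept scarce by Mdm2, which marks it for degradation, and held inactive by the related Mdm4. DNA damage and other stress release it, and it then turns on genes for cell cycle arrest, cell death, DNA repair and its own restraint, Mdm2 among them. PML, the scaffold of PML nuclear bodies, is known to bring p53 together with enzymes that acetylate and phosphorylate it. p53 is mostly controlled at the level of the protein, which was not measured.

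Depth ranged from 31384794 to 44130093 reads counted in genes. Levels are given as CPM, reads per 1000000 reads counted, and each difference is Pml-/- minus wild type on the log2(CPM + 1) scale unless another scale is named. Pml itself was at 238 and 228 CPM in the wild-type libraries and at 78.7 and 89.7 CPM in the Pml-/- libraries (log2 fold change -1.46 with SE 0.06, limma adjusted p = 4.43e-10). Stem cell identity was checked on 12 markers, among them Pou5f1, Sox2 and Nanog, whose summed level was 8211 and 8307 CPM in wild-type libraries and 8412 and 8477 CPM in Pml-/-. The sum hides moves in both directions. Of these markers 2 fell (Zfp42 and Utf1) and 1 rose (Tfcp2l1), where 3.45% of all genes tested fell and 1.95% rose. In 3 of the 12 both Pml-/- libraries lay below both wild-type libraries. In 6 of the 12 both lay above, against 25.5% below and 23.8% above for all genes. Zfp42 passed under every alternative, whereas Utf1 and Tfcp2l1 lost their calls with DESeq2 (adjusted p = 0.517 and 0.504), with no filter (0.169 and 0.146), without wild-type library 1 (0.222 and 0.319) and without Pml-/- library 1 (0.138 and 0.0509). The summed level of 8 fibroblast markers was 13.7 to 13.9 CPM in wild-type libraries and 13.7 to 15.7 CPM in Pml-/-, with Dcn listed at 0. That of 7 primitive endoderm markers was 8.63 to 9.94 and 8.89 to 11.5 CPM, and that of 6 trophoblast markers 17.3 to 17.5 and 16.0 to 16.7 CPM. The summed level of 8 germ layer markers was 51.0 to 51.6 CPM in wild-type libraries and 42.8 to 47.7 CPM in Pml-/-. Of these 8 only 4 were tested, and 1 fell, the neural gene Sox1. Its call was lost with no filter (limma adjusted p = 0.0555). The library kit entry of wild-type library 2 names a DNA kit where the other 3 name an RNA kit. Nothing in the labels says that the libraries of a genotype are separate cultures, so the p-values cover only the spread between these libraries, which may be technical.

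Of the 31 genes, 30 had a mean of at least 1 CPM and entered the test. In Pml-/- cells 4 of them fell and 0 rose: the receptor tyrosine kinase gene Epha2, the antiproliferative gene Btg2, the cyclin-dependent kinase inhibitor gene Cdkn1a (p21) and the polo-like kinase gene Plk2. Of all 12710 genes tested with limma, 3.45% fell and 1.95% rose. The decreases were modest, from 15.7% for Plk2 to 30.6% for Epha2. The transcripts of Trp53, Mdm2 and Mdm4 did not pass the test, and neither did any of the death, repair or redox genes. At an unadjusted limma p under 0.05 there were 9 of the 30, against 2454 of all 12710 genes.

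The median difference of the 30 genes was -0.08, against 0.00 (median -0.003) over all genes tested. The estimate was below 0 for 25 of the 30 and for 51.0% of all genes. In 13 of the 30 both Pml-/- libraries lay below both wild-type libraries, where 25.5% of all genes did so. In 2 of the 30 both lay above, where 23.8% of all genes did. Taking the libraries in pairs, the median difference of the 30 was -0.06 and -0.07 for Pml-/- library 1 against wild-type libraries 1 and 2, and -0.11 and -0.09 for Pml-/- library 2. Between the libraries of one genotype it was -0.01 in wild type (library 2 minus 1) and -0.03 in Pml-/-. The shift of the group was thus small in each pairing and larger than that between libraries of one genotype. Because the members share the same 4 libraries, these counts describe the group and are no test of it.

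**Figure D1:**
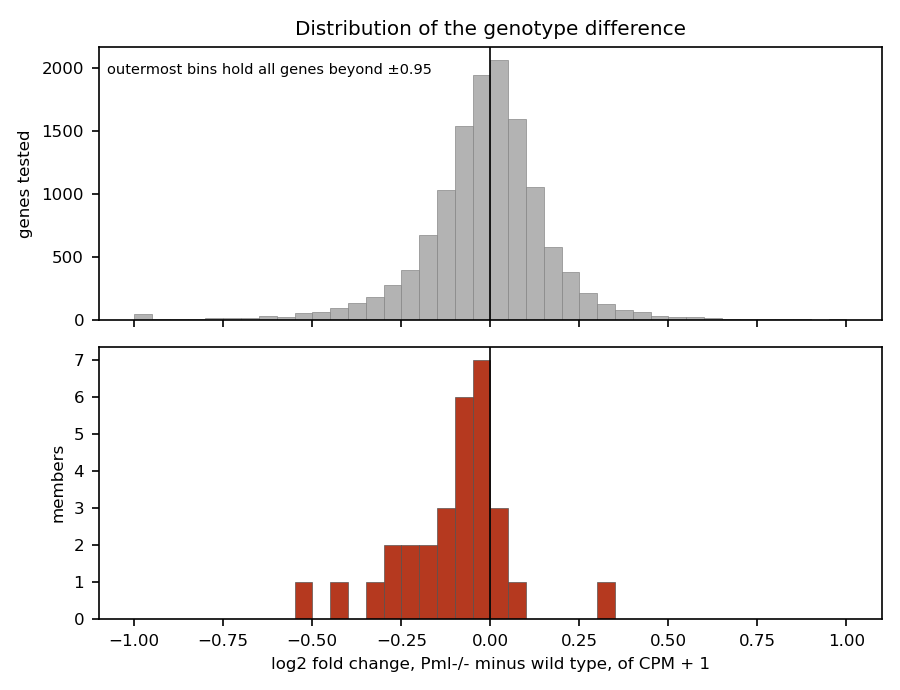
Number of genes (vertical axes) in bins of the log2 fold change of CPM + 1, Pml-/- minus wild type (horizontal axis), for all 12710 genes tested (upper panel) and for the 30 p53 pathway genes tested (lower panel). Of the 30 genes, 25 lie below 0, whereas all genes are spread nearly evenly around 0.

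The p53 gene and, of its feedback loop, Mdm4 and Ccng1 stood at nearly the same level in both genotypes. Trp53 (chromosome 11, 69580348 to 69591873, mm10) was at 572 and 546 CPM in wild-type libraries and 519 and 587 CPM in Pml-/-. The Pml-/- libraries bracketed the wild-type libraries, and the 95% interval of the difference ran from -8.72 to 6.93% (limma adjusted p = 0.901). Mdm4 was at 210.0 and 197 CPM in wild-type libraries and 211 and 194 CPM in Pml-/-, again overlapping, with an interval of -7.78 to 7.60%. Ccng1, a target whose product (cyclin G1) acts with Mdm2 to restrain p53, was at 631 and 654 CPM against 613 and 648 CPM, with an interval of -8.12 to 4.67%.

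Mdm2, the target that closes the loop, was at 266 and 267 CPM in wild-type libraries and 248 and 253 CPM in Pml-/-. Both Pml-/- libraries were lower, by 6.0% in the mean, and the difference did not pass the test (log2 fold change -0.09 with SE 0.04, limma adjusted p = 0.279). Its interval ran from -11.8 to 0.238%. A fall of Mdm2 as large as the 20.5% of Cdkn1a lay outside that interval.

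**Figure D2:**
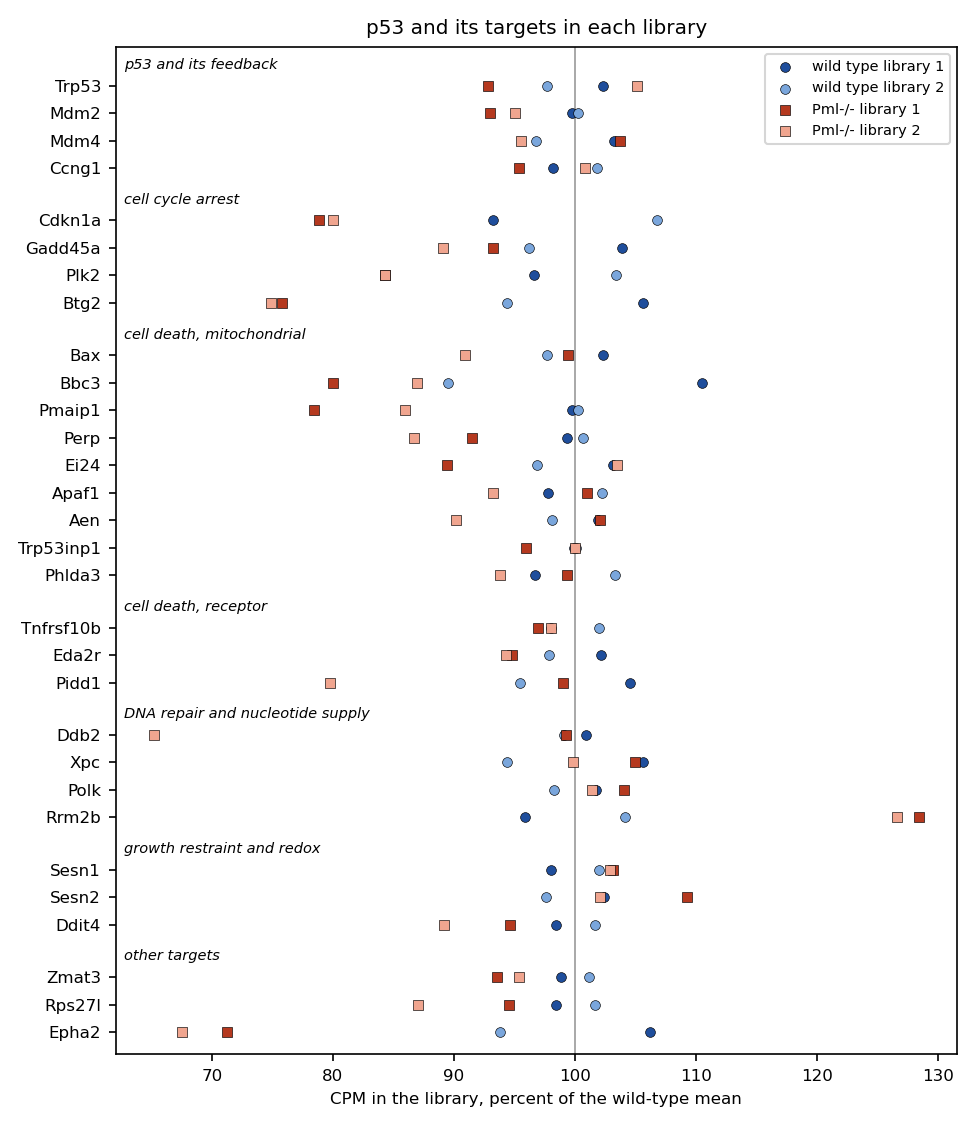
Level of each p53 pathway gene in each library (horizontal axis, CPM as percent of the wild-type mean of that gene), for the 30 genes tested, grouped by role. Circles are the 2 wild-type libraries and squares the 2 Pml-/- libraries. The squares of Epha2, Btg2, Cdkn1a and Plk2 lie left of both circles, and those of Rrm2b lie right of them. In 15 of the 30 genes circles and squares overlap, where the libraries of 6445 of all 12710 genes tested did so.

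Of the 4 genes grouped under cell cycle arrest 3 fell, where 3.45% of all genes tested fell and 1.95% rose. The group is small, and its members were chosen with earlier results of these data known. Cdkn1a encodes p21, the inhibitor through which p53 stops cells before DNA replication. It lies on chromosome 17 from 29090979 to 29100722 (mm10) and was at 170 and 195 CPM in wild-type libraries and 144 and 146 CPM in Pml-/-. Both Pml-/- libraries lay below the lower wild-type library by a gap of 24.0 CPM, about as wide as the 24.8 CPM between the wild-type libraries. The fold difference was 1.26 (log2 fold change -0.33 with SE 0.06, limma adjusted p = 0.00389).

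The RefSeq promoter table (GRCm38.p6) gives 300 bases per transcript start, 250 before it and 50 after, and holds 31 windows for 23 of the 31 genes. These were searched for the p53 consensus element, a pair of joined decamers, allowing 2 mismatches outside the fixed C and G of each core; the element reads alike on both strands. It was found for 3 of the 23 genes, against 0.392% of all 27025 genes with a window (0.326% of all 32851 windows). The 3 stretches follow 5′ to 3′ on the strand of the gene, with the 20-base element in capitals and 30 bases on each side, because they hold the element in its joined form within the windows searched.

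Cdkn1a, chr17:29090898-29090977, plus strand: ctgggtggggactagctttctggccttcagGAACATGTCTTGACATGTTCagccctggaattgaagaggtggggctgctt
Ccng1, chr11:40755432-40755511, minus strand: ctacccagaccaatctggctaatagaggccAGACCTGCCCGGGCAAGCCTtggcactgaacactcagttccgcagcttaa
Rps27l, chr9:66946266-66946345, plus strand: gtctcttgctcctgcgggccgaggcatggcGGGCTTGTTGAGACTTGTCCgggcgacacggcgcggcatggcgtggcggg

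Each element has 1 mismatch in 20 bases. The one of Cdkn1a begins 51 bases before the upstream of 2 listed starts and 2841 bases before the downstream start. The one of Ccng1 begins 195 bases before a listed start. That of Rps27l begins 117 bases before a listed start and lies within the gene, which spans 66944624 to 66949522. With a spacer of up to 13 bases allowed between the decamers, the element was found for 6 of the 23 genes (Bax, Ccng1, Cdkn1a, Gadd45a, Rps27l and Sesn1) and for 4.71% of all genes with a window (4.09% of all windows); these matches include those above. Of these genes Cdkn1a fell, and the others did not pass the test. The windows of Epha2, Btg2 and Plk2, which also fell, held no match under either rule. A match is a reading of letters, and binding was not measured.

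Btg2, a p53 target that slows the G1 to S transition, lies on chromosome 1 from 134074865 to 134079155 (mm10) and was at 86.0 and 76.9 CPM in wild-type libraries and 61.7 and 61.0 CPM in Pml-/-. The Pml-/- libraries were within 0.718 CPM of each other and lay 15.2 CPM below the lower wild-type library. The fold difference was 1.33 (log2 fold change -0.40 with SE 0.06, limma adjusted p = 0.00155). Plk2, a kinase of centriole duplication and of the response to stress, lies on chromosome 13 from 110395044 to 110400844 and was at 95.5 and 102 CPM in wild-type libraries and at 83.4 and 83.3 CPM in Pml-/-. Its libraries did not overlap, and the fold difference was 1.19 (log2 fold change -0.24 with SE 0.05, limma adjusted p = 0.0165). The call of Plk2 was lost when wild-type library 2 was left out (adjusted p = 0.125) and with no filter on low values (adjusted p = 0.0528), and stood at 0.0493 without Pml-/- library 2.

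Gadd45a, the fourth arrest gene, which acts at the G2 checkpoint, was at 18.4 and 17.1 CPM in wild-type libraries and 16.6 and 15.8 CPM in Pml-/-. Its libraries did not overlap either, by a gap of 0.520 CPM, and it did not pass the test (log2 fold change -0.13 with SE 0.09, limma adjusted p = 0.511). Wild-type library 1 was the higher of its group for Btg2 and Gadd45a and the lower for Cdkn1a and Plk2.

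Epha2 encodes a receptor tyrosine kinase of the ephrin family, known both as a p53 target and as a target of ERK signalling. It lies on chromosome 4 from 141301221 to 141329384 (mm10) and was at 202 and 178 CPM in wild-type libraries and 135 and 128 CPM in Pml-/-. The gap between the groups was 42.9 CPM and exceeded the 23.5 CPM between the wild-type libraries. The fold difference was 1.44 (log2 fold change -0.52 with SE 0.06, limma adjusted p = 5.94e-05), the largest among the 30 genes.

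**Figure D3:**
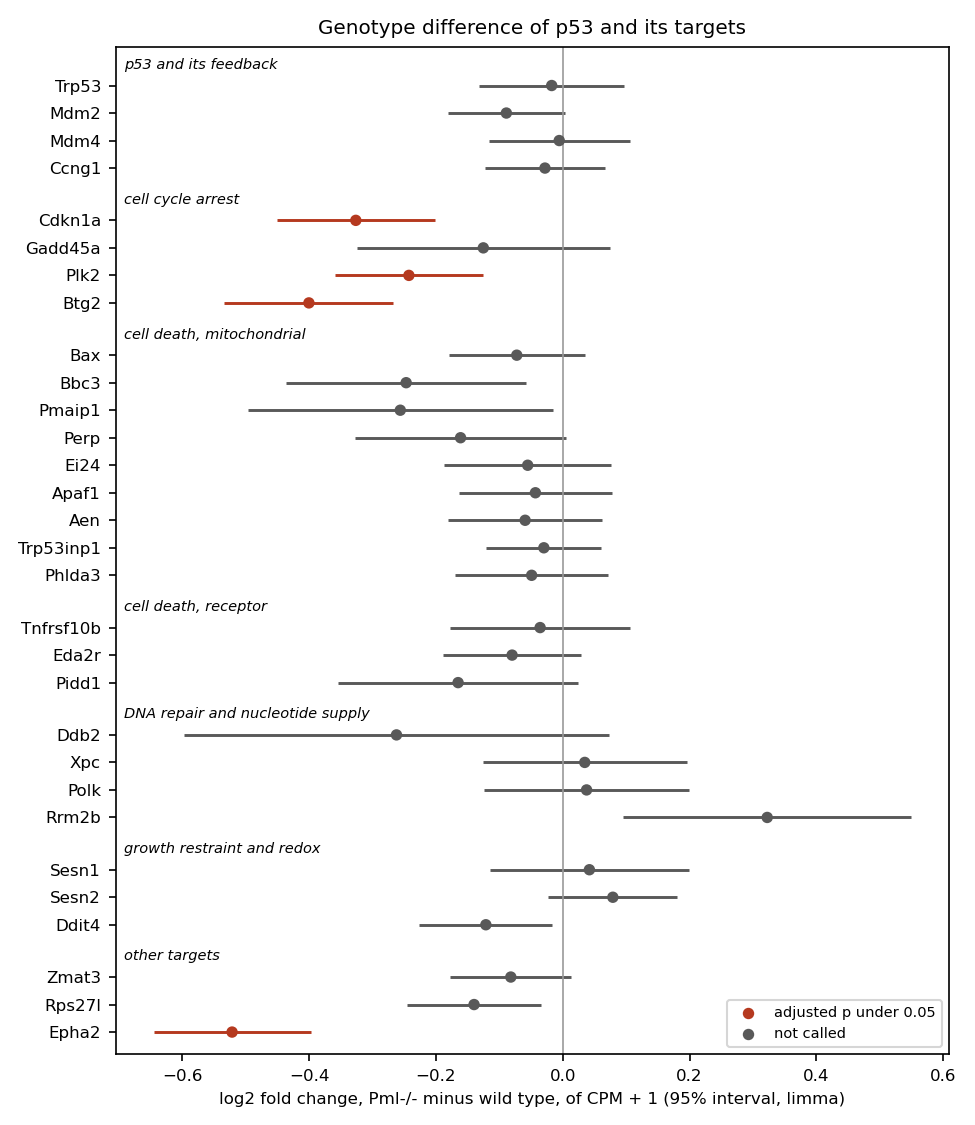
Log2 fold change of CPM + 1, Pml-/- minus wild type (horizontal axis), with its 95% interval from limma, for the 30 p53 pathway genes tested, grouped by role. The 4 genes past an adjusted p of 0.05 are in red, with intervals from -0.65 to -0.40 for Epha2 and from -0.36 to -0.13 for Plk2, and the interval of Rrm2b lies above 0 although it did not pass.

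Of the 9 genes grouped under the mitochondrial route to cell death, not all act in that route itself. With limma 0 of the 9 passed the test, and all 9 had estimates below 0. An unadjusted limma p under 0.05 was found for 2 of the 9, Bbc3 and Pmaip1, a share near that of all genes (2454 of 12710). EdgeR's quasi-likelihood test and DESeq2 on the recovered reads also called 0 of the 9. Bbc3 encodes PUMA, a BH3-only protein that triggers the mitochondrial route. It was at 47.0 and 38.0 CPM in wild-type libraries and 34.02 and 37.0 CPM in Pml-/-. The wild-type libraries stood 8.92 CPM apart and the groups only 1.08 CPM (log2 fold change -0.25 with SE 0.09, limma adjusted p = 0.130). Without wild-type library 2 Bbc3 passed (adjusted p = 0.00191), and without wild-type library 1 its adjusted p was 0.760.

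Pmaip1, which encodes the BH3-only protein NOXA, was at 10.2 CPM in both wild-type libraries and at 7.99 and 8.76 CPM in Pml-/-. The groups did not overlap, and the difference did not pass (log2 fold change -0.26 with SE 0.11, limma adjusted p = 0.227). Bax, the pore-forming effector that such proteins act on, was at 289 and 275 CPM in wild-type libraries and 280.2 and 256 CPM in Pml-/-. Its libraries overlapped, and its interval was -11.7 to 2.43%.

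Perp, which encodes a membrane protein of cell death and of desmosomes, was at 28.4 and 28.8 CPM in wild-type libraries and 26.1 and 24.8 CPM in Pml-/-, without overlap and short of the threshold (limma adjusted p = 0.274). The remaining genes of this group overlapped between genotypes, and their Pml-/- means, though not every single library, lay within 4% of the wild-type means. Apaf1, the core of the apoptosome, was at 95.6 ± 3.04 CPM in wild-type libraries and 92.8 ± 5.24 CPM in Pml-/- (SD, n = 2). Aen, an apoptosis-enhancing nuclease, was at 161 ± 4.29 and 155 ± 13.5 CPM, and Ei24, a membrane protein of the endoplasmic reticulum, at 166 ± 7.36 and 159.6 ± 16.4 CPM. Trp53inp1, a stress protein that promotes p53 phosphorylation, was at 427 ± 0.572 and 419 ± 12.3 CPM. Phlda3, an inhibitor of AKT, was at 89.9 ± 4.22 and 86.8 ± 3.51 CPM.

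Of the 4 receptor-linked death genes 3 entered the limma test. Fas entered only with edgeR and with no filter, where all 31 members were tested. With limma, edgeR or DESeq2 0 of the genes passed. Of the 3 tested with limma, 0 had an unadjusted limma p under 0.05, where 2454 of all 12710 genes did. Fas, a death receptor, was below a mean of 1 CPM: wild-type libraries 1 and 2 held 11 and 10 reads, Pml-/- libraries 1 and 2 held 17 and 3, so no difference was detectable at this depth. Tnfrsf10b, the mouse TRAIL receptor, was at 40.3 and 41.9 CPM in wild-type libraries and 39.8 and 40.3 CPM in Pml-/-, with an interval of -11.6 to 7.68%. Eda2r, an ectodysplasin receptor on the X chromosome, was at 107 ± 3.29 CPM in wild-type libraries and 102 ± 0.347 CPM in Pml-/-, lower in both Pml-/- libraries and short of the threshold (limma adjusted p = 0.436). Pidd1, the scaffold of the PIDDosome, was at 47.4 and 43.3 CPM against 44.9 and 36.1 CPM. Pml-/- library 2 alone was low for Pidd1, and the gene passed only without Pml-/- library 1 (adjusted p = 0.0398; 0.333 with all 4 libraries).

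Repair genes and the redox and growth group held the 5 estimates above 0. Rrm2b, which encodes the p53-induced subunit of ribonucleotide reductase and so supplies nucleotides for repair, was at 9.50 and 10.3 CPM in wild-type libraries and 12.7 and 12.5 CPM in Pml-/-. Both Pml-/- libraries were above both wild-type libraries, by 27.5% in the mean, and the difference did not pass (log2 fold change 0.32 with SE 0.11, limma adjusted p = 0.0977). It passed with the replicate number as a block (adjusted p = 0.0479). In the authors' deposited table its false discovery rate was 0.0559, with the higher level in the knockout.

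Xpc and Ddb2 recognise ultraviolet and other bulky lesions for nucleotide excision repair, and Polk is a translesion polymerase. Xpc was at 36.2 ± 2.87 CPM in wild-type libraries and 37.1 ± 1.30 CPM in Pml-/-, and Polk at 28.2 ± 0.681 and 29.0 ± 0.521 CPM (SD, n = 2). Ddb2 was at 6.37 and 6.25 CPM in wild-type libraries and at 6.26 and 4.12 CPM in Pml-/-, so its lower mean came from 1 library. Reads of Ddb2 can also belong to the overlapping gene Acp2. Mdm4, Gadd45a, Ei24, Apaf1, Eda2r, Xpc, Rrm2b and Zmat3 overlap another RefSeq gene too, unlike the 4 genes that fell, and whether strand was used in counting is not stated by any source used here.

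The sestrins restrain mTORC1 and assist antioxidant defence, and Ddit4 (REDD1) restrains mTORC1 as well. Sesn1 was at 29.4 and 30.5 CPM in wild-type libraries and 30.9 and 30.8 CPM in Pml-/-, higher in both Pml-/- libraries by less than the wild-type spread (limma adjusted p = 0.817). Sesn2 was at 296 and 282 CPM in wild-type libraries and 316 and 295 CPM in Pml-/-, overlapping, with an interval of -1.56 to 13.3%. Ddit4 was at 166 and 172 CPM in wild-type libraries and 160.0 and 151 CPM in Pml-/-. Its libraries did not overlap, and it did not pass (log2 fold change -0.12 with SE 0.05, limma adjusted p = 0.186). Of these 3 redox and growth genes 0 passed with any of the 3 tests. An unadjusted limma p under 0.05 was found for 1 of them, Ddit4, and for 2454 of all 12710 genes.

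Zmat3, a p53 target that encodes an RNA-binding splicing regulator, was at 214 and 219 CPM in wild-type libraries and 202 and 206 CPM in Pml-/-, without overlap and within an interval of -11.6 to 0.938%. Rps27l, a ribosomal protein paralog known to bind Mdm2, was at 220.2 and 227 CPM in wild-type libraries and 212 and 195 CPM in Pml-/- (log2 fold change -0.14 with SE 0.05, limma adjusted p = 0.126). It passed without Pml-/- library 1 (adjusted p = 0.0238). Its near-identical paralog Rps27 was listed at only 1.15 to 1.42 CPM in the 4 libraries, and how reads matching both genes were counted is not stated by any source used here, which makes the level of Rps27l uncertain.

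The 95% intervals give, gene by gene, the differences that the spread between these libraries allowed. That spread may be technical, so a difference between separate cultures or clones could lie outside them. On the CPM + 1 scale they also understate changes of genes with low levels. Of the 26 genes that did not pass, 19 had a 95% interval within 1.2-fold of no change in either direction. Among them were Trp53, Mdm2, Mdm4, Ccng1, Bax, Trp53inp1, Eda2r and Zmat3. The interval lay within 1.5-fold for 25 of the 26, Ddb2 being the exception. Of the 4 genes that fell, 0 had an interval within 1.2-fold, a count that depends on their having passed the test.

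The 4 decreases were also found by other tests on the same libraries. EdgeR's quasi-likelihood test on the recovered reads called the same 4 genes lower and 0 higher, with 2.71% of all its tested genes lower and 1.48% higher. DESeq2 called the same 4 lower and 0 higher, with 2.27% and 1.48% of all genes. In the authors' deposited table, at a false discovery rate under 0.05, the same 4 genes were higher in wild type, as were 2.38% of its genes, and 0 of the 31 were higher in the knockout, as were 1.42%. Its log2 fold changes, wild type over knockout, were 0.52 for Epha2, 0.40 for Btg2, 0.33 for Cdkn1a and 0.25 for Plk2. Epha2, Btg2 and Cdkn1a also passed with limma without each library in turn, at adjusted p of at most 0.000369, 0.00745 and 0.0241.

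**Figure D4:**
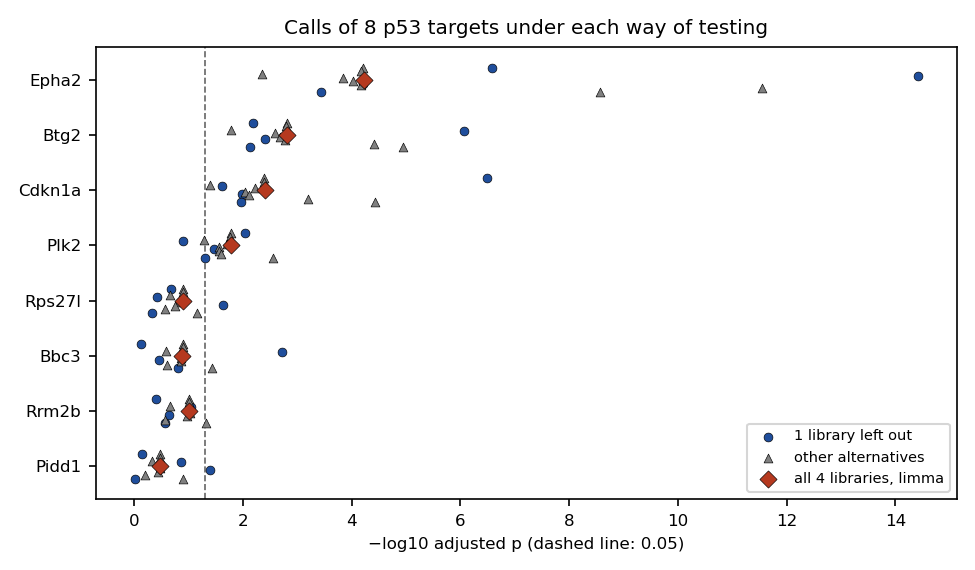
Adjusted p of 8 p53 targets on a −log10 scale (horizontal axis), where the dashed line is 0.05 and values to its right passed. Red diamonds are the limma fit on all 4 libraries, blue circles the fits without 1 library and grey triangles the other alternatives. All marks of Epha2, Btg2 and Cdkn1a lie to the right of the line, whereas Plk2, Rps27l, Bbc3, Rrm2b and Pidd1 have marks on both sides.

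Most other genes of the pathway did not pass the test. Of 30 tested regulators of p53, 2 fell and 0 rose, with a median of -0.003, where 3.45% of all genes fell and 1.95% rose. The list holds, for example, the damage kinases Atm and Chek2, the acetyltransferases Crebbp and Ep300 and the kinase Hipk2. Trp73, the p53 paralog p73, was at 30.6 and 28.3 CPM in wild-type libraries and 23.5 and 20.4 CPM in Pml-/- (log2 fold change -0.41 with SE 0.09, limma adjusted p = 0.0122). That call ended without Pml-/- library 2 (adjusted p = 0.108) and with no filter (adjusted p = 0.0597). Rchy1, which encodes the p53 ubiquitin ligase PIRH2, was at 53.2 and 54.4 CPM against 44.8 and 46.8 CPM (limma adjusted p = 0.0489), and its call ended without any 1 of the 4 libraries (highest adjusted p = 0.164) and with edgeR, DESeq2, TMM scaling and either other filter. Over the regulators, 1 gene was higher without Pml-/- library 1, and 3 were lower with the replicate block.

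For 36 tested further p53 targets outside the 31, such as Ppm1d and Gdf15, the median was -0.10. Among the 36, 1 fell and 0 rose, where 3.45% of all genes fell and 1.95% rose. The one that fell was Fbxw7, a substrate receptor of a ubiquitin ligase, at 55.7 and 60.0 CPM in wild-type libraries and 47.8 and 48.6 CPM in Pml-/- (limma adjusted p = 0.0270). Its call ended without wild-type library 2 or either Pml-/- library (highest adjusted p = 0.170), with no filter and with DESeq2 (adjusted p = 0.0607). The direction of the count turned without Pml-/- library 1, where 0 were lower and 2 higher, and with the replicate block 3 were lower and 2 higher. In 19 of the 36 both Pml-/- libraries lay below both wild-type libraries, and in 5 both lay above, against 25.5% and 23.8% of all genes. An unadjusted limma p under 0.05 was found for 13 of the 36, in either direction, against 2454 of all 12710 genes. The counts describe the list and are no test of it.

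Cell cycle genes that p21 is known to repress through the DREAM complex, such as Ccnb1, Cdk1 and Plk1, gave 0 of 30 past the threshold with limma, edgeR or DESeq2, with a median of 0.01. Of these, 7 had an unadjusted limma p under 0.05, a share near that of all genes (2454 of 12710), and 1 fell without wild-type library 2, without Pml-/- library 1 and with the replicate block.

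Targets of ERK signalling, a list that also holds Epha2, moved in the same samples: 8 of 18 tested fell and 0 rose, with a median of -0.21, where 3.45% of all genes fell and 1.95% rose. Etv4 was at 21.5 and 16.4 CPM in wild-type libraries and 7.21 and 6.79 CPM in Pml-/- (log2 fold change -1.31 with SE 0.12, limma adjusted p = 1.15e-05). The feedback inhibitors Dusp6 and Spry4 fell 1.67-fold and 2.71-fold in mean CPM (log2 fold changes -0.68 and -1.11). Spry4 was low, at 8.89 and 4.65 CPM in wild-type libraries and 1.99 and 3.00 CPM in Pml-/-. Its call ended with no filter (limma adjusted p = 0.0790), and it did not enter the test at a mean of at least 5 CPM. The count of the list was 3 with no filter and 4 without wild-type library 1 or without Pml-/- library 1. For Epha2, Etv4, Dusp6 and Spry4 wild-type library 1 was the higher of its group. The part of ERK signalling in the level of Epha2 was not tested.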

How the data were processed

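Per the submitters' processing notes, cutadapt, TopHat and edgeR were used on the mm10 genome; versions, annotation, strand and multi-mapping rules are stated by no source used here. The deposited table holds CPM per library and, from the authors' own comparison, p-values, false discovery rates, log2 fold changes and log2 CPM. Dividing the deposited CPM by the value of 1 read gave whole reads for 100% of values (tolerance 0.001 reads).

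Limma-trend (limma 3.58.1, R 4.3.3) was fitted to log2(CPM + 1) of the 12710 genes whose mean reached 1 CPM; the model held genotype alone, and p-values were adjusted over all of these genes by Benjamini-Hochberg, with a threshold of 0.05. EdgeR 4.0.16 (quasi-likelihood, TMM, filterByExpr) and DESeq2 1.42.0 on the recovered reads were alternatives and called 620 and 486 genes. Scripts were tested on simulated counts. Intervals are limma's 95% intervals, as percent change of CPM + 1.

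Members, lists and tests were chosen with earlier results of these data known. Named were all members, Pml, Rps27 as paralog of Rps27l, and up to 4 called genes of each list by smallest adjusted p. Further list genes are named as examples, and Sox1, Zfp42, Utf1 and Tfcp2l1 as called markers. Positions came from RefSeq GRCm38.p6, where all 31 members matched by symbol.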

Additional observations from a re-analysis of the deposited data

How the results depend on the processing

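Each result was recomputed under 12 alternatives. The number of members lower in Pml-/- was 4 under log2(CPM + 0.5), log2(CPM + 0.1), a mean of at least 5 CPM, TMM scaling, edgeR and DESeq2, 3 with no filter, and 4 to 6 without 1 library; the number higher was 0 in all of these. With the replicate block 5 were lower (Bbc3 was added) and 1 higher (Rrm2b). The labels do not say that libraries of one number belong together, and across genes their deviations had a correlation of 0.12. The members' median ranged from -0.10 to -0.07. All genes past the threshold numbered 687, 298 with no filter, 1198 with the replicate block, and 423 to 879 without 1 library. Signs turned only in members that did not pass. For Mdm4 the value was 0.0018 with DESeq2. Leaving out 1 library gave -0.11 to 0.072 for Trp53, -0.065 to 0.054 for Mdm4, -0.068 to 0.012 for Ccng1, -0.16 to 0.049 for Ei24, -0.10 to 0.014 for Apaf1, -0.15 to 0.029 for Aen and -0.044 to 0.11 for Xpc. With 2 libraries a group, the number of libraries limits precision, and for Fas the depth does. The causes of these changes were not tested.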
